A study of Trichoderma reesei with 18 samples.

Results

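The comparison described here is that of constant light with constant darkness in the Trichoderma reesei strain Δ21168, from which the gene TR21168 had been deleted. It rests on 6 of the 18 RNA sequencing libraries of the study: 3 of Δ21168 grown in darkness and 3 of Δ21168 grown in light. All rows of the count table entered, 10879 genes, of which 8530 had enough reads to be tested and 2349 had not, 499 of them with no read in any of the 6 libraries. The title of the study places TR21168 and a second deleted gene, TR80186, among the MAP kinase kinases of the pheromone and the osmotic stress (HOG) cascades. All strains derived from QM6a, which served as the wild type (WT), and all mycelium, the threadlike vegetative body of the fungus, was harvested after 96 h at 28 °C in minimal medium with cellulose as carbon source. WT and Δ80186, with 3 libraries per light condition each, are used below only to show where Δ21168 differed. It is not stated whether libraries of the same group are separate cultures, nor whether each deletion strain was 1 transformant. The p-values thus refer only to the spread among these libraries, which may be technical.

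Trichoderma reesei secretes the enzymes that break down cellulose, and light is known to change its gene expression widely, including that of these enzymes. Blue light is sensed by the transcription factors BLR1 and BLR2, relatives of the White Collar proteins of Neurospora, and the response is adjusted by the photoreceptor ENV1. A MAP kinase kinase is the middle member of a relay of protein kinases: it is activated by a kinase above it and activates a MAP kinase below it. In fungi the pheromone cascade is known for its part in mating and in hyphal growth.

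The 6 libraries of Δ21168 held 7945697 to 12415791 counts, with reads for 9478 to 9863 genes. The rows carry identifiers such as TrE0391W, made of Tr, a letter from A to G, digits and a final W or C, and the files do not pair them with gene names. Of 36 gene symbols looked up (cellulases and their regulators, light signalling, pheromone system, MAP kinases and mating type), 3 were found, those of the mat1-1 mating type locus. Members of the other lists could therefore not be counted, nor could mycelium be checked by marker genes. The 3 mat1-1 genes, of which mat1-1-1 and mat1-1-3 encode transcription factors of one mating type, had 0 reads in the dark libraries of Δ21168. In light, mat1-1-1 had 0, 1 and 2 reads and the other two had 0, so both conditions were at or under the floor of 3 reads over a group and no fold is given. TR21168 could not be looked up by its number either. TrE0746W, singled out because its reads were missing, had 0 reads in all 6 libraries of Δ21168 and 987 to 1710 reads in each of the other 12.

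The 3 dark libraries of Δ21168 spread more than those of any other group. Their common biological coefficient of variation, the relative SD between libraries beyond counting error, was 0.236, against 0.119 in the light libraries of this strain and 0.0764 to 0.131 in WT and Δ80186. Dark replicate 1 stood apart, with rank correlations of 0.982 and 0.979 with the other two, which correlated at 0.989. Without it the coefficient was 0.172. The first principal component, with 83.6% of the variance of the 6 libraries, separated light from darkness, and the second, with 7.9%, set dark replicate 1 apart from the other dark libraries. For this reason the light response was tested within the 6 libraries alone.

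Light changed close to every second gene tested. With edgeR's quasi-likelihood test and Benjamini-Hochberg adjustment over 8530 genes, 4162 genes had an adjusted p under 0.05 and are called changed. Of these 1988 were higher in light, 23.3% of the genes tested, and 2174 were lower, 25.5%. With library totals in place of composition factors the balance turned, to 2471 higher and 1838 lower. The values of the light and dark libraries did not overlap in 5116 of all 8530 genes (60%), and in 4118 of the called ones, which that same difference selects. The changes were mostly moderate, with a median log2 fold change of 0.69 among raised and −1.04 among lowered genes and of −0.00441 over all genes tested. Without dark replicate 1, 4322 genes changed, and 3822 of the 4162 kept their call and direction.

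Large changes went mainly downward. At least 2-fold higher in light were 536 genes (6.28% of those tested) and at least 2-fold lower 1118 (13.1%). At 8-fold the counts were 91 and 299, and at 64-fold 15 and 104. The last count uses fitted values. Of the 104 genes, 34 had no read in light, and with these set to a floor of 3 reads over the group 84 genes were at least 64-fold lower. No gene with a raised call lacked reads in all dark libraries. Levels are given below as CPM, the reads of a gene per 1000000 reads of its library, scaled to the libraries' composition and not corrected for gene length. Without dark replicate 1 the counts at 2-fold were 578 and 1159, and at 64-fold 19 and 117. As RNA was taken from whole mycelium, fewer cells of a type and less RNA per cell cannot be told apart.

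**Figure D1:**
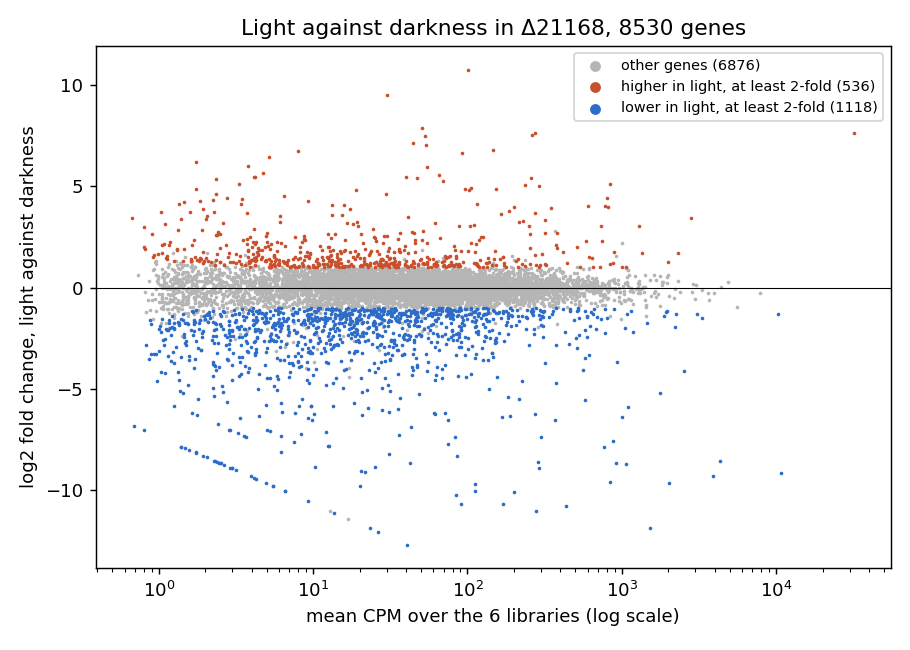
Log2 fold change of each of the 8530 genes tested in Δ21168 (light against darkness, vertical axis) by its mean CPM over the 6 libraries (log axis). The 1118 genes at least 2-fold lower reach farther from 0 than the 536 at least 2-fold higher. The slanted row of points at the lower left is made of genes with no read in light, whose fitted fold depends on a small added count.

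The gene with the largest rise in mean CPM was TrE0391W, whose function the files do not give. In Δ21168 it stood at 460.1, 325.8 and 146.3 CPM in dark replicates 1 to 3 and at 57650, 68900 and 65500 CPM in light. The groups lay far apart, and in light this 1 gene took 6.03% to 7.17% of all counts of a library. The log2 fold change was 7.66 ± 0.54 (SE; adjusted p = 0.00014). In WT it went from 20.1 ± 12.8 (SD, n = 3) to 43520 ± 2298 CPM. The dark values of Δ21168 lay above all those of WT, and its light response was smaller (difference −3.41 ± 0.67 SE on the log2 scale, adjusted p = 0.0063). Against Δ80186 the difference, −0.92 ± 0.47, did not pass the test (adjusted p = 0.15).

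TrE1116C came next in the rise of its mean CPM. It had 326.1, 349.2 and 695 CPM in the dark libraries and 4729, 5482 and 5207 CPM in light, with a log2 fold change of 3.46 ± 0.33 (adjusted p = 0.00038). All light values were above all dark values, and of the dark libraries replicate 3 was the highest. In WT the same gene rose from 485.8 ± 37.7 to 2099 ± 170.5 CPM (SD, n = 3, as for all later values of WT and Δ80186), a smaller rise by 1.37 ± 0.34 on the log2 scale (adjusted p = 0.015). In Δ80186 it fell, from 149 ± 30.7 to 5.53 ± 1.33 CPM. Of the called genes with a group mean of at least 50 CPM in both mutants it had the largest positive difference in light response between them, 8.22 ± 0.48 on the log2 scale (adjusted p = 1.5e-06).

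Among genes lowered by light, TrG0022C had the largest fall in mean CPM. It had more counts than any other gene in each dark library of Δ21168, with 24450, 18360 and 21200 CPM, and had 5.16, 83.8 and 26.5 CPM in light. The light libraries differed widely among themselves, and the highest was far below the lowest dark value. The log2 fold change was −9.14 ± 1.37 (adjusted p = 0.0063), and −10.42 without light replicate 2. TrC1166C came next, with 8664, 8151 and 9193 CPM in darkness and 11.5, 42 and 15.2 CPM in light (−8.59 ± 0.71, adjusted p = 0.00059; −9.37 without light replicate 2). Again light replicate 2 was the highest of the light libraries. For neither gene did the response differ from WT beyond error, with differences of −0.02 ± 1.08 (adjusted p = 1) and 1.14 ± 0.56 (adjusted p = 0.18).

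**Figure D2:**
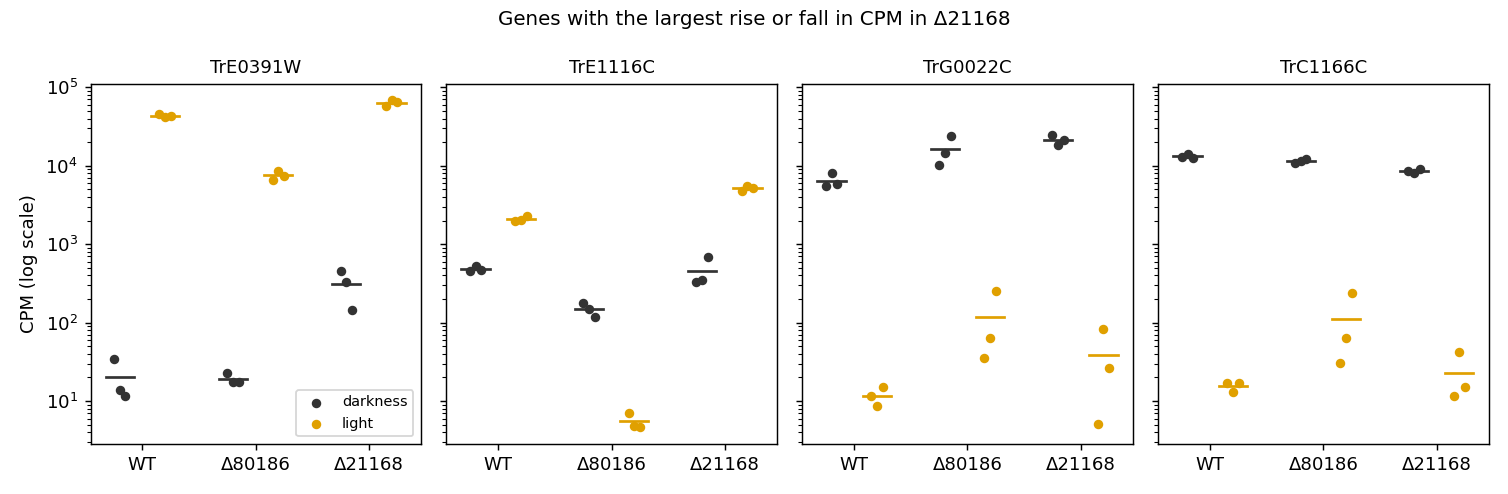
CPM (log axis) of the 2 genes with the largest rise and the 2 with the largest fall in CPM in Δ21168, in each library of the 3 strains. Points are libraries, bars are means of 3. TrE1116C is higher in light in WT and Δ21168 and lower in light in Δ80186.

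Light replicate 2 was the highest light library in the summed level of the strongly lowered genes, which include TrG0022C and TrC1166C. The 104 genes lowered at least 64-fold had 56510 to 70290 CPM in all in the dark libraries. In light they had 93.6, 307 and 140 CPM in replicates 1 to 3, or 0.144%, 0.473% and 0.215% of the dark mean. Among those of the genes whose 3 light values all differed, replicate 2 was the highest in 25, replicate 1 in 11 and replicate 3 in 8. Genes with equal values in any light libraries, such as 0 reads, were left out of these counts. The same counts over all genes tested are not given here, so they are only a description. Replicate 2 also had the most counts in all, 10699719 against 9080309 and 9047382 in replicates 1 and 3. Most of the excess of replicate 2 lay in the 10 genes with most reads, with 243 CPM against 43.4 and 87.7, while the other 94 genes had 63.9 CPM against 50.1 and 52.2. Its cause was not tested. Of the 104 genes, 94 could be tested in WT and 93 of them were at least 2-fold lower in light there too, as were 15.6% of all genes tested in WT. All 15 genes raised at least 64-fold in Δ21168 were at least 2-fold higher in light in WT, as were 7.75% of all genes tested there.

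For a group of genes no read was left in light. There were 21 genes whose dark mean reached 5 CPM and which had no read in any of the 3 light libraries. Their dark levels were 5.09 to 81.4 CPM, and the folds were at least 50.2 to 807, computed against a floor of 3 reads over the light group, which covers counting error only. The reverse, 0 reads in darkness and at least 5 CPM in light, was found for 0 genes, and for 2 without dark replicate 1. TrA1899C was the gene of this group with most dark reads, with 71.1, 96.3 and 76.7 CPM, so at least 807-fold lower in light (510-fold without light replicate 2, 554 and 551 without the others). In darkness TrA1899C stood at 1.73 ± 0.84 CPM in WT and 6.12 ± 0.33 CPM in Δ80186, and in light 1 read in all was found in WT and 0 in Δ80186. Its response was not called different from that of WT (adjusted p = 0.11). Of the 21 genes, 19 had at most 3 reads in all in the light libraries of WT and 15 in those of Δ80186. Without light replicate 2 there were 35 such genes. Leaving out a light library can only keep or raise this number, as fewer libraries then have to lack reads.

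The total output of reads shifted between genes. Averaged by group, 24.2% of all counts moved from one gene to another between darkness and light, against 7.99% to 12.9% between single dark libraries and 4.31% to 6.5% between single light libraries. The 100 genes with most counts took 24.9% to 26.8% of the dark and 25.7% to 26.8% of the light libraries. The dark and light lists of 100 shared 62 genes. Each list was chosen by its level in one condition, which favours genes higher in that condition. In the dark list 33 genes were at least 2-fold lower in light and 1 was at least 2-fold higher, while in the light list 18 were at least 2-fold higher and 7 lower.

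Responses of both directions occurred over the whole range of read numbers. Of the 108 genes whose mean reached 1000 CPM, 65 were called, with 8 raised and 23 lowered at least 2-fold. Among the 1738 genes with a mean under 10 CPM, 708 were called, with 197 raised and 405 lowered at least 2-fold. In the classes between, of 10 to 100 and of 100 to 1000 CPM, 5.24% and 4.33% of genes were raised and 11.2% and 8.33% lowered at least 2-fold. In each of the 4 classes more genes were lowered than raised by this measure.

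Genes lowered by light were unevenly spread along the order of the identifiers. What the letter and number stand for is not stated in the sources used here, so only this order is described. Between 11.2% (letter C) and 15.9% (letter G) of the genes tested under a letter were at least 2-fold lower in light, and between 4.81% (G) and 7.71% (F) at least 2-fold higher. Among the first 50 and last 50 identifiers under each letter, 32.4% of 447 genes tested were at least 2-fold lower, against 12% of the 8083 others. For genes at least 2-fold higher the shares were 9.4% and 6.11%. Without dark replicate 1 they were 7.78% and 6.62%, a smaller gap. These shares were not computed with any other library left out. A gap in the same direction was found in WT (12.3% and 7.5%) and in Δ80186 (10.2% and 5.82%). The shares of lowered genes were 31.3% and 12.4% without dark replicate 1, and 36.6% and 14.4% in WT. The difference from WT was called for 25.2% of the genes at the ends and for 24.5% of the rest.

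Some of the lowered genes were neighbours in this order. There were 24 runs of at least 4 consecutive identifiers that were all at least 2-fold lower in light, with 107 genes in all, or 9.57% of the genes so lowered. Of these 107 genes 88 were also at least 2-fold lower in WT and 82 in Δ80186, where 15.6% and 13.9% of all genes tested were. The longest run had 7 genes, TrA2142C to TrA2148W, with a summed level of 197, 127 and 204 CPM in the dark libraries and 10.3, 9.52 and 8.54 CPM in light. Its first gene had a log2 fold change of −3.59 ± 0.56 (adjusted p = 0.0015; −2.90 without dark replicate 3) and its last of −4.46 ± 0.29 (adjusted p = 5.6e-06). For 0 of the 7 genes was the difference from WT in response called.

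Raised genes formed 2 such runs, with 9 genes in all. Of these, 3 were at least 2-fold higher in WT and 0 in Δ80186, where 7.75% and 6.05% of all genes tested were. TrF0033C, TrF0034W and TrF0035W had too few reads to be tested in WT, so they could not count there. The longer had 5 genes of few reads, TrF0033C to TrF0037C, with summed levels of 5.22, 3.13 and 4.36 CPM in darkness and 30, 23.4 and 30.2 CPM in light. In WT this run had 5.89 to 6.25 CPM in darkness and 17.5 to 19.7 CPM in light. In Δ80186 it had 6.86 to 7.11 and 7.76 to 9.42 CPM. TrF0033C had a log2 fold change of 2.89 ± 0.47 (adjusted p = 0.001), and 3.82 without dark replicate 3. TrF0037C was at the limit of the call (1.42 ± 0.52, adjusted p = 0.049), with adjusted p of 0.0032 to 0.12 over 11 alternatives. The call was lost when dark replicate 1 or 3 or any light replicate was left out, with the replicate block (0.068) and without the filter on low counts (0.051). Between 1 and 3 raised runs were found when a library was left out.

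In 2 of the runs the response was far from that of WT; they were chosen for this after the values were seen, so the values are a description. The 4 genes TrA1547C to TrA1550C together had 24.3, 28.8 and 23.9 CPM in the dark libraries of Δ21168 and no read in light, and so were at least 255-fold lower. In WT they had 5.97 ± 0.50 CPM in darkness and 1.87 ± 1.18 CPM in light, and in Δ80186 13.2 ± 1.77 and 11.6 ± 0.78 CPM. The 4 genes TrB0848C to TrB0851C behaved the other way round. They went from 64.5 ± 3.66 CPM in darkness to 0 reads in light in WT, at least 870-fold lower, whereas in Δ21168 they had 49.5, 48.4 and 59.3 CPM in darkness and kept 8.74, 12.4 and 9.16 CPM in light.

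The light response of Δ21168 was next set beside that of WT, whose libraries were tested separately. Over 8395 genes tested in both strains, the log2 fold changes had a Pearson's r of 0.821 across genes, which are not independent replicates. Of the genes that WT raised at least 2-fold in light, 625 were tested in Δ21168, and of these 443 (70.9%) were called higher, 30 lower and 152 not called in Δ21168, where 23.3% of all genes were called higher. Of 1228 genes so lowered, 888 (72.3%) were called lower, 25 higher and 315 not called, where 25.5% of all genes were called lower. Of all genes so changed in WT, 48 raised and 125 lowered ones had too few reads to be tested in Δ21168.

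The larger the change in WT, the more often it was found in Δ21168. Of genes raised 2- to 4-fold in WT 67.1% were called higher, and of the 38 raised at least 32-fold 97.4%. For lowered genes the shares were 62.2% and 95.4%, the latter of 173 genes. The median log2 fold change in Δ21168 was 0.89 and −0.91 for genes changed 2- to 4-fold in WT, and 5.05 and −5.53 for those changed at least 32-fold (−5.24 with genes without reads in a group set to their bound). The sets were chosen in WT, which favours larger values there.

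Where the response differed was tested as an interaction, the log2 light response of Δ21168 minus that of WT, in 12 libraries. It was called for 2190 of 8910 genes (24.6%), 982 positive and 1208 negative. With library totals in place of composition factors 1336 were positive and 919 negative, so the balance of signs depended on scaling. The spread of each gene was estimated over these 12 libraries together. The common biological coefficient of variation was 0.236 in the dark libraries of Δ21168, against 0.131 and 0.111 in darkness and light in WT. A shared spread may be too small for Δ21168, and its effect on the calls was not tested. In 453 of the called genes light acted in the same direction in both strains and less in Δ21168, and in 251 it acted more. In 641 genes the response was called in WT and not in Δ21168, in 582 the reverse, and in 22 in neither strain. In 241 genes it was called in opposite directions, 158 of them raised in WT and lowered in Δ21168. The libraries of Δ21168 form a number series of their own in the sample descriptions, so this series and the strain cannot be told apart. The light and dark libraries within each strain belong to the same series.

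The 2190 genes were also split by the condition in which their level differed between the strains. Of the 2190 genes, 884 differed between Δ21168 and WT in darkness and not in light and 572 in light and not in darkness. In both conditions 665 differed, and in neither 69. The same split over all 8910 genes tested is not given here, so these counts are only a description. Of the genes that rose at least 2-fold in WT, 277 were called in the interaction, 248 with a smaller and 29 with a larger response in Δ21168. Of those that fell, 503 were called, 439 smaller and 64 larger. Those sets held 673 and 1353 genes, of which 48 and 125 had too few reads to be tested in Δ21168 alone. Over all genes tested 24.6% were called in the interaction. The sets were chosen in the WT libraries that also enter the difference, which favours a smaller response in Δ21168.

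**Figure D3:**
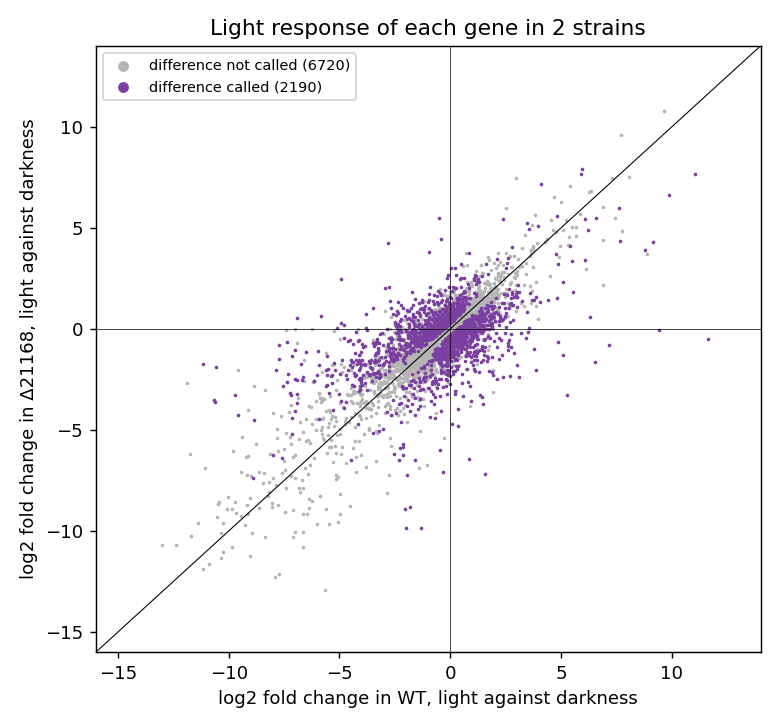
Log2 fold change in light against darkness in Δ21168 (vertical) and WT (horizontal), 1 point per gene, from the fit of 12 libraries. Purple points are the 2190 genes whose response differed, and the diagonal marks an equal response.

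The level of the genes regulated in WT was also followed in each library, as the mean log2 CPM of the 673 genes that light raised 2-fold or more in WT minus that of the 1353 lowered ones. In the dark libraries of Δ21168 this difference was −0.75, −0.99 and −1.03, and in its light libraries 2.16, 2.23 and 2.19. Dark replicate 1 was the dark library nearest to the light ones. The dark libraries of WT lay at −1.78 to −1.76 and its light libraries at 2.78 to 3.01. For Δ80186 these ranges were −1.47 to −1.36 and 1.16 to 1.23. No dark library of Δ21168 was as low as any dark library of the other strains, and its light libraries lay between those of Δ80186 and WT. The dark and light means of Δ21168 were 3.12 apart, those of Δ80186 2.63 and those of WT, where the genes were chosen, 4.65. That choice favours low dark and high light values in WT. In these levels the strain Δ21168 cannot be told apart from its library number series.

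**Figure D4:**
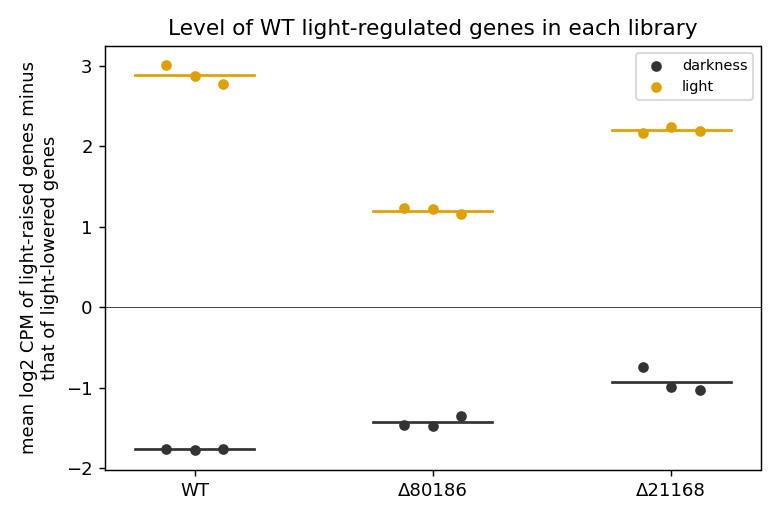
Mean log2 CPM of 673 genes raised by light in WT minus that of 1353 genes lowered by light in WT, in each library (points) with the mean of 3 (bars). The dark libraries of Δ21168 lie at −1.03 to −0.75, above those of WT at −1.78 to −1.76. The genes were chosen in WT, which favours low dark and high light values there.

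Individual genes illustrate the differences from WT. TrB0212C fell in light in Δ21168 from 400.7, 378.5 and 511.8 to 93.7, 113.5 and 116.6 CPM (−2.03 ± 0.14, adjusted p = 7.7e-06). In WT it fell from 274 ± 15.9 to 1.14 ± 0.64 CPM, so the response of Δ21168 was smaller by 5.86 ± 0.30 on the log2 scale (adjusted p = 4.5e-07). TrB1388W rose in Δ21168, from 21.4, 28.5 and 23.8 to 270.4, 407.4 and 356.8 CPM (3.78 ± 0.19, adjusted p = 4.2e-06). In WT it fell, from 499 ± 102 to 258 ± 9.46 CPM (difference 4.75 ± 0.25, adjusted p = 4e-07). In darkness all values of Δ21168 were far below those of WT, and in light all were above them, the lowest only slightly.

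The largest negative differences among called genes with a group mean of at least 50 CPM in both strains were those of TrD0248C and TrC0062W. TrD0248C fell in Δ21168 from 1062, 809 and 698.9 to 158.3, 116.3 and 191 CPM (−2.50 ± 0.24, adjusted p = 0.00024). In WT it had 34.9 ± 4.97 CPM in darkness and 49.4, 131.7 and 271.6 CPM in light, a wide spread. The difference was −4.59 ± 0.75 (adjusted p = 0.0027), and −3.84 without WT light replicate 3. TrC0062W fell in Δ21168 from 1528, 1093 and 909.5 to 398.8, 434.8 and 441.5 CPM, and in WT had 15.8 ± 2.45 CPM in darkness and 21, 65.3 and 130 CPM in light (difference −3.68 ± 0.76, adjusted p = 0.008; −2.93 without WT light replicate 3). With the replicate number as a block its adjusted p was 0.054, in a range of 1.3e-05 to 0.054 over 17 alternatives. In darkness all values of both genes lay above those of WT in Δ21168, and in light those of TrD0248C overlapped with WT.

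**Figure D5:**
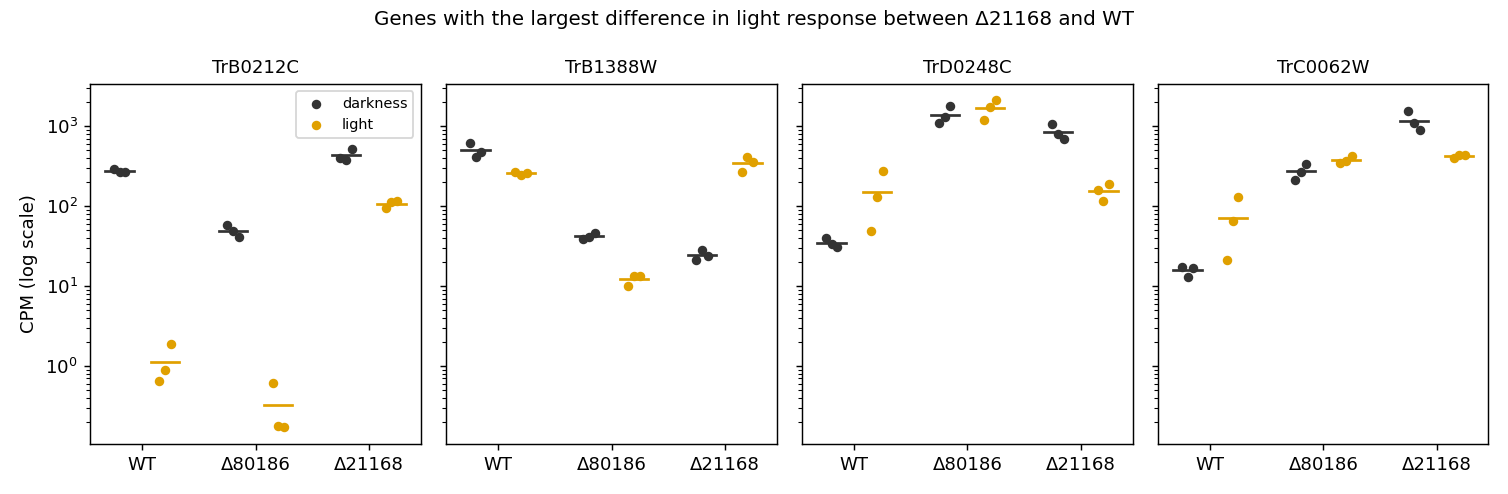
CPM (log axis) in each library of the 2 genes with the largest positive (TrB0212C, TrB1388W) and the 2 with the largest negative (TrD0248C, TrC0062W) difference in light response between Δ21168 and WT among called genes with a group mean of at least 50 CPM in each strain. Bars are means of 3. In TrD0248C and TrC0062W the dark libraries of Δ21168 lie above its light libraries.

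From the other mutant the light response of Δ21168 was called different in more genes than from WT. Numbers of calls also depend on the spread between libraries. The common biological coefficient of variation was 0.108 in darkness and 0.0764 in light in Δ80186, against 0.131 and 0.111 in WT. The interaction with Δ80186 was called for 3721 of 8936 genes (41.6%), with 1817 positive values and 1904 negative ones. With library totals the signs were 2421 to 1428. The spread of each gene was again shared over 12 libraries, although the dark libraries of Δ21168 had a coefficient of 0.236. In 596 genes the responses were called in opposite directions, in 373 of them with a rise in Δ80186 and a fall in Δ21168. The levels differed in light and not in darkness in 1825 of the 3721 genes and in darkness and not in light in 490. Again the split over all genes tested is not given. Both interactions share the Δ21168 libraries, so their lists are not compared.

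Among called genes with a group mean of at least 50 CPM in both mutants, the next positive difference from Δ80186 after TrE1116C was that of TrF0363W. It rose in Δ21168 from 137.8, 106.1 and 228.3 to 2066, 453.1 and 1397 CPM (3.02 ± 0.70, adjusted p = 0.024), and in Δ80186 fell from 673 ± 386 to 69.1 ± 12.9 CPM (difference 6.32 ± 0.93, adjusted p = 0.00088). Its light libraries spread widely, and light replicate 2 was the lowest. In the negative direction TrB0209C rose in both mutants, from 3.79, 1.63 and 1.48 to 52.6, 64.7 and 53.8 CPM in Δ21168 and from 1.98 ± 0.71 to 3559 ± 241 CPM in Δ80186 (difference −6.18 ± 0.45, adjusted p = 4e-06). TrF1040C fell in Δ21168 from 582.5, 442 and 307.7 to 221.9, 248.4 and 259.9 CPM (−0.90 ± 0.23, adjusted p = 0.018). In Δ80186 it rose from 78.7 ± 22.3 to 1077 ± 25.1 CPM (difference −4.65 ± 0.35, adjusted p = 5.2e-06).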

How the data were processed

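The authors deposited 1 table of whole-number read counts per gene, not normalised, with a column for each of 18 libraries, matched to samples by the sample descriptions. Groups were taken from the sample titles. Libraries were made with a stranded kit after removal of ribosomal RNA, per the labels' protocols, and reads were aligned with HISAT2 2.2.1, per the submitters' processing notes. Not given in the sources used here: read trimming, the genome build, how multiply aligned reads were handled and whether counting used the strand. Reads of antisense partners, overlapping genes and near-identical copies could thus not be told apart. Library totals were 7945697 to 15672321 counts. Reads carried no molecular identifiers as far as the sources say, so floors cover counting error only.

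Light and darkness were compared in the 6 libraries of Δ21168 with edgeR 4.0.16 in R 4.3.3 (TMM factors, robust quasi-likelihood test, filterByExpr with a minimum count of 10 and a minimum total of 15, Benjamini-Hochberg adjustment over all genes tested, adjusted p under 0.05). Each SE was obtained by dividing the absolute log2 fold change by the root of the F statistic. WT and Δ80186 were fitted in the same way, and differences in response as interactions in 12 libraries. CPM use TMM sizes of all 18 libraries. The mean log2 CPM per gene set used a prior count of 2. The scripts were tested on simulated data.

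Named genes were those whose identifier is a listed name, the 2 genes with the largest rise and the 2 with the largest fall in mean CPM, the 2 largest interactions in each direction with a group mean of at least 50 CPM in each strain, the gene with 0 reads in one condition and most CPM in the other, and the ends of the longest runs. TrE0746W and the 2 contrasting runs fall outside this rule and were chosen after their values were seen. The comparison, gene lists and rules were chosen with earlier results of these data known. In the reference table of 9116 genes 0 of the identifiers were found, so no names, positions or sequences were taken from it.

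Alternatives were DESeq2 1.42.0, library totals, no filter on low counts, a replicate block, 1 fit of all 18 libraries and each library left out in turn. The shares at the ends of the identifier order without dark replicate 1 and in the other strains were added after seeing the data.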

Additional observations from a re-analysis of the deposited data

Results flagged for a closer look

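The light response of Δ21168 differed by the test of the difference from that of WT in 2190 genes and from that of Δ80186 in 3721 genes. Against WT the log2 response of Δ21168 was higher by 5.86 in TrB0212C and by 4.75 in TrB1388W, and the difference was −4.59 in TrD0248C and −3.68 in TrC0062W. Against Δ80186 the difference was 8.22 in TrE1116C, 6.32 in TrF0363W, −6.18 in TrB0209C and −4.65 in TrF1040C. These 8 genes were named as the most extreme called genes with a group mean of at least 50 CPM in each of the strains compared. Genes of fewer reads, such as TrB0848C with 9.41 against WT, had larger fitted differences. TrB0848C had no read in the light libraries of WT, so its fitted value depends on a small added count.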

How the results depend on the processing

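The 4162 genes changed by light in Δ21168 became 4207 with DESeq2, 4309 with library totals, 4277 without the filter and 5469 in the fit of all 18 libraries, where 4149 kept their call and direction. Leaving out a library gave 3318 to 4322. Library totals moved the median log2 fold change by 0.1 and turned the balance of directions to 2471 higher and 1838 lower, while at 2-fold more genes were still lower (1014 against 685). The deviations of same-numbered dark and light libraries had correlations of −0.298, −0.089 and 0.00372. Those of libraries of unlike number had −0.22 to 0.242. So few values cannot show whether the libraries were paired. With a replicate block 3684 genes were called, 1768 in the interaction with WT and 3199 in that with Δ80186. The interactions ranged from 1687 to 2529 and from 3137 to 3961 without 1 library. Of the genes raised by light in WT, 48 in place of 30 were called lower in Δ21168 in the fit of all 18 libraries. Without 1 library there were 18 to 35 genes with 0 reads in light, 0 to 2 with 0 reads in darkness, and 1 to 3 runs of raised genes. Leaving out a library of the condition that has to lack reads can only keep or raise the numbers of genes with 0 reads. For the other shifts the cause was not tested. Among named genes 227 values kept their direction and call and 8 lost the call, of which 7 belong to TrF0037C and 1 to TrC0062W. No direction reversed in the alternatives run. With 3 libraries per group and few reads in many genes, a gene without a call is not shown to be unchanged.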
